A study of Xenopus laevis with 13 samples.

Results

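Cleavage-stage embryos of the frog Xenopus laevis were compared with blastulae on 4 of the 13 arrays of a developmental series. The arrays were chosen by their sample titles: the 2-cell and 16-cell stages formed the cleavage group, and stages 8 and 9 formed the blastula group. Each array held RNA pooled from whole, dejellied embryos of 1 stage cultured in dilute Steinberg's solution. The labels give no strain, genotype or treatment for any stage, and no stage was measured more than once. The 2 arrays of a group are therefore different stages used in place of replicates. Change between these stages is part of the spread. A limma p-value weighs the difference between groups against that spread, drawn toward the spread of all probes compared. It holds no measure of the variation between samples of 1 stage. The 2-cell, 16-cell and stage 8 arrays lay on 1 slide with the egg, and stage 9 lay on another slide with its own scan, so slide, scan and stage 9 cannot be told apart. The description label of the 16-cell sample names the 2-cell stage, whereas its title, source name and stage label give the 16-cell stage, which was used.

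The cleavage divisions of the frog embryo run on RNA and protein stored in the egg. In the mid-blastula the cell cycle lengthens and the embryo's own genes are widely switched on, and many maternal RNAs are cleared in the blastula and gastrula. The labelling kit copies RNA from its poly(A) tail, and maternal RNAs are known to gain and lose such tails after fertilization, so the amount of an RNA and the length of its tail cannot be told apart here. In whole embryos, fewer cells that carry an RNA and less of it per cell cannot be told apart either.

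The array held 43803 probes for 28256 accessions, mostly of cDNA clones and expressed sequence tags. The files pair each probe with an accession and not with a gene name, and 0 accessions matched the RefSeq gene table, so the roles of most transcripts are not given, and markers of germ plasm or of differentiated tissues could not be looked up. Levels are log2 signals relative to the 75th percentile of the array's probes, so that 0 is a signal equal to that percentile. Over the 4 arrays this percentile lay between a signal of 1728 and 2008, and 63.9% to 66.4% of the probes were called well above background by the scanner software. The mean log2 signal of the RNA spiked in during labelling lay between 12.41 and 12.62, highest at stage 9. The groups did not overlap in the share well above background or in the spike-in level (exact permutation test, two-sided p = 0.333 for each, the smallest that 2 against 2 arrays can give), and they overlapped in the 75th percentile (exact p = 0.667). No probe was saturated. The egg array, used below for reference, was weaker: its 75th percentile was a signal of 942, and 59.0% of its probes were well above background. Its lowest level well above background was -5.42, against -6.91 to -6.42 on the 4 arrays. Levels measurable in cleavage can thus go undetected in the egg.

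Cleavage embryos and blastulae differed little. Of the probes, 28206 (64.4%) were well above background on both arrays of at least 1 group and were compared. The difference, blastula minus cleavage, had a median of -0.04 and an SD over probes of 0.36 on the log2 scale, and the middle 50% of the probes lay between -0.20 and 0.18. The group means differed by at least 2-fold for 210 probes that were higher in the blastula (0.745%) and for 161 that were lower (0.571%). At 1.5-fold these counts were 1442 (5.11%) and 801 (2.84%).

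The steps between neighbouring stages were of similar size. The SD over probes was 0.27 from the 2-cell to the 16-cell stage, 0.34 from the 16-cell stage to stage 8, and 0.34 from stage 8 to stage 9. At least 2-fold higher at the later stage were 100 probes in the step within cleavage, 123 in the step between the groups and 121 in the step within the blastula, and 39, 189 and 406 probes were at least 2-fold lower. The step within the blastula, which also crossed slides, thus held the most such probes of the 3 steps, 527 (1.87%). Levels were used as measured, so the counts include changes between levels not well above background. For 12514 probes (44.4%) the difference between the group means was larger than both gaps within the groups.

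**Figure D1:**
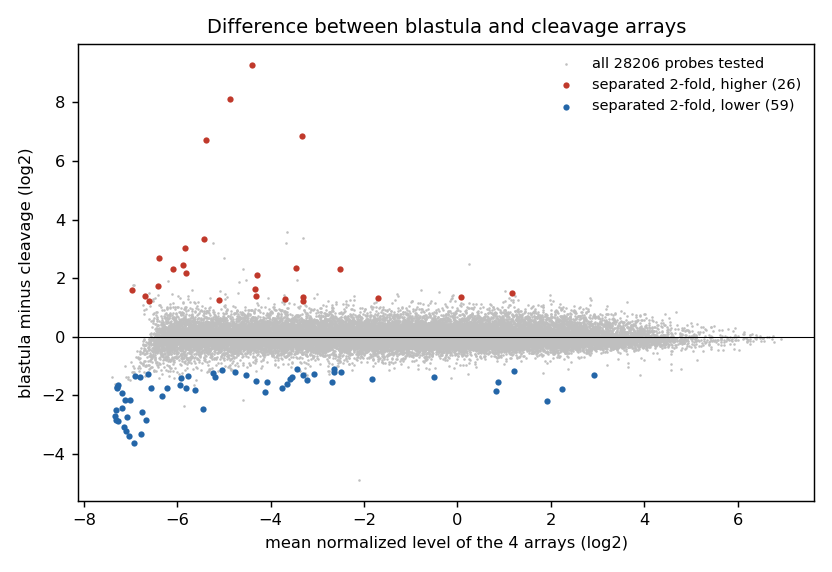
Difference between the group means (log2, blastula minus cleavage) against the mean level over the 4 arrays (log2 relative to the 75th percentile) for 28206 probes, 1 point each, with the probes whose groups lay at least 2-fold apart in colour. The cloud narrows from an SD of 0.63 below a level of -6 to 0.28 above a level of 2.

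The limma fit called 3 of the 28206 probes at an adjusted p under 0.05 (0.0106%), all of them lower in the blastula, and 0 probes higher. At an unadjusted p under 0.05 there were 3384 higher (12.0%) and 2941 lower probes (10.4%). All 3 called probes were dim. Each passed the filter through cleavage alone, being well above background on both cleavage arrays and on neither blastula array, so the difference and the spread that the fit used rest on blastula values below what the array could measure. The calls are therefore no measure of how far these transcripts went down, and a fold is given only as an approximate lower bound. The bound sets the mean level of the bright group against that of the dim group, after a dim array's value was raised to the lowest level called well above background on that array where it lay below it. Some levels above this lowest level were still not called, so a bound, and each "at least" that rests on it, is not a strict minimum.

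The largest bound of the 3 was that of AW158516, with levels of -4.83 at the 2-cell stage, -5.40 at the 16-cell stage, and -8.74 at both stage 8 and stage 9. It was at least 2.49-fold lower in the blastula (limma adjusted p = 0.0345). The cleavage arrays did not overlap the blastula arrays, and this probe was not well above background in the egg or at any stage after the blastula.

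The second, for BX853189, stood at -5.59 and -5.06 on the cleavage arrays and at -8.72 and -8.73 on the blastula arrays. It was at least 2.16-fold lower in the blastula (limma adjusted p = 0.0345). Unlike the first, this probe was at -3.93 in the egg, at -4.20 at stage 10.5 and at 0.07 at stage 15, so it was low in the blastula and measurable before and after. The accession's other probe was not above background on any of these 4 arrays and was not compared, and it was well above background at every stage from 10.5 on.

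The third called probe stood at -6.12 and -5.86 against -8.71 and -8.67, at least 1.36-fold lower (limma adjusted p = 0.0345), and was at -4.29 at stage 10.5. These calls did not survive every setting. With probes required to be well above background on all 4 arrays, with no filter, or after normexp background correction, 0 probes passed, and with scaling to the spiked-in RNA 537 were higher and 1883 lower. Leaving out 1 array moved the count to 6 without the 2-cell array, 0 without the 16-cell array, 192 without stage 8 and 58 without stage 9, which is the comparison within the first slide (22 higher and 36 lower) and also the count with slide as a block.

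Because 2 arrays a group give a weak estimate of the spread, the probes were also described by whether the groups were separated. The groups did not overlap for 7344 probes higher in the blastula (26.0%) and for 8896 lower (31.5%). The arrays of one group all lay at least 2-fold beyond those of the other for 26 probes of 22 accessions higher in the blastula (0.0922%) and for 59 probes of 50 accessions lower (0.209%). With scaling to the spiked-in RNA these counts were 17 and 96. With each level below the array's lowest level well above background raised to it, 18 of the 26 and 35 of the 59 were still at least 2-fold apart. The smallest gap inside the higher list was 1.01 and the largest outside it 0.99, and for the lower list both rounded to 1.00. At 1.5-fold the counts were 279 (0.989%) and 268 (0.95%), and at 4-fold 4 (0.0142%) and 11 (0.039%).

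In the higher list the differences ranged from 1.21 to 9.29 with a median of 1.92, or from 0.56 to 6.98 with a median of 1.66 where probes undetected in cleavage were set at their bound. No member passed the adjusted threshold, and the limma adjusted p lay between 0.0692 and 0.199. For the 14 members undetected on both cleavage arrays, the fit used cleavage values below what the array could measure. The limma p printed beside a bound below is of this kind: it belongs to the difference as measured, not to the bound. The largest bound was that of BJ047767, for which both probes were in the list.

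The brighter BJ047767 probe was at -9.21 at the 2-cell stage, -8.88 at the 16-cell stage, -1.87 at stage 8 and 2.36 at stage 9, or signals of 3.38, 3.91, 471 and 10234. It was not well above background in cleavage or in the egg, and was at least 126-fold higher in the blastula (limma adjusted p = 0.120). The second probe was at -8.87, -8.59, -4.38 and 0.33 on the same arrays, at least 26.2-fold higher (limma adjusted p = 0.134).

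On both BJ047767 probes stage 9 lay far above stage 8, which widened the spread within the blastula group. The brighter probe was at 5.61 at stage 10.5, on the same slide as stage 9, and the probes were at 3.93 and 2.05 at stage 12. At stage 8 alone, on the slide of the cleavage arrays, the probes were at least 29.1-fold and 5.12-fold above cleavage, with no test.

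BG038512 followed the same course, with -9.14, -8.73, -3.20 and 1.58 from the 2-cell stage to stage 9 and 4.60 at stage 10.5. It was at least 60.8-fold higher in the blastula (limma adjusted p = 0.129), and at least 11.6-fold at stage 8 alone, with no test. One further accession was at -7.04, -6.47, -2.48 and 2.70, at least 111-fold higher (limma adjusted p = 0.139), and at 4.86 at stage 10.5. These accessions held all 4 of the probes separated by at least 4-fold in this direction.

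**Figure D2:**
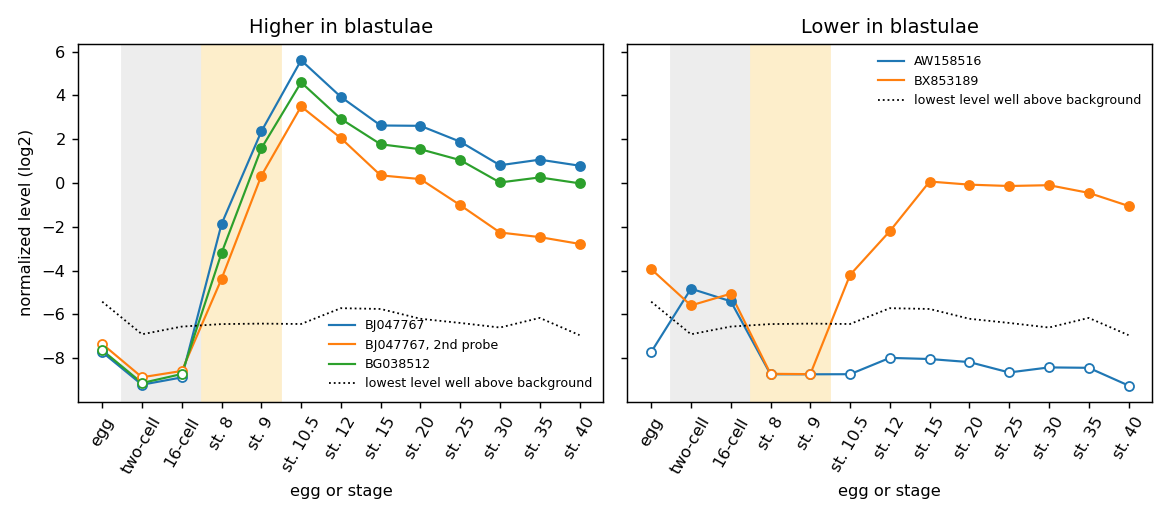
Levels (log2 relative to the 75th percentile) of the probes of BJ047767, BG038512, AW158516 and BX853189 on all 13 arrays in order of stage, with cleavage shaded grey and blastula yellow, open circles where a probe was not well above background, and a dotted line for the lowest level called well above background on each array. The probes of BJ047767 and BG038512 sit between -9.21 and -8.59 in cleavage and between -4.38 and 2.36 in the blastula, and both accessions peak at stage 10.5.

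Among all 26 probes of the higher list, 14 were not well above background on either cleavage array and 12 were well above it on all 4 arrays. In the egg 6 were well above background, against 89.4% of all probes compared. These probes were chosen for low levels in cleavage, which is next to the egg in time, so a low share there was partly fixed by the choice. Stage 9 was above stage 8 for 19 of them, at least 2-fold for 8, and below it for 7.

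Stage 10.5 and the egg took no part in choosing these probes, but they border the blastula and cleavage in time. A difference between them in the direction of the list can thus follow in part from the choice. A fold from the egg was counted only where its higher side was well above background, with the lower side raised to the lowest such level on its array. From the egg to stage 10.5, 19 of the 26 were at least 2-fold higher (22.4% of all probes compared), 1 was at least 2-fold lower, and 6 were neither, 2 of them well above background at neither stage. Of the 13 arrays, the highest value was at stage 8 for 1 probe, at stage 9 for 3, at stage 10.5 for 5, and at later stages for the remainder. Most of these transcripts thus stayed above their egg level into the gastrula, and a minority peaked in the blastula.

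For the 59 probes of the lower list, the differences ranged in size from 1.09 to 3.62 with a median of -1.64. Where probes undetected in the blastula were set at their bound, the median was -1.21 and the sizes ran from 0.006 to 2.23. At the low end of that range no fall was measurable. The list held many dim probes: 30 were not well above background on either blastula array, 2 were on 1 of them, and 27 were well above it on all 4 arrays. A mean level below -6, where 1016 of the 28206 probes lay, was found for 25 of the 59 and for 6 of the 26 in the higher list. In the egg 34 of the 59 were well above background, against 89.4% of all probes compared. Stage 9 was below stage 8 for 45 probes, at least 2-fold for 7, and above it for 14. Of all 28206 probes compared, 406 were at least 2-fold lower at stage 9. The counts for the list include the 30 probes undetected on both blastula arrays, for which neither value was measurable. They are therefore no measure of a further fall within the blastula.

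The lower list did not hold only RNAs that were lower at stage 10.5 than in the egg. From the egg to stage 10.5, counted in the same way, 21 of the 59 were at least 2-fold lower (27.2% of all probes compared). Another 12 were at least 2-fold higher (22.4% of all probes compared), and 26 were neither, 14 of them well above background at neither stage. At their highest stage from 10.5 on, 42 of the 59 were at least 2-fold above the egg (41.7% of all probes compared), and 56 were well above background at 1 or more of these stages. Of all probes compared, 97.7% were well above background at stage 10.5 alone. The median level of the list was -4.32 in the egg, -4.65 and -4.60 in cleavage, -6.51 and -6.48 in the blastula, -4.47 at stage 10.5 and -1.79 at stage 15. Because low blastula values chose the list, part of the rise after the blastula can follow from the choice.

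**Figure D3:**
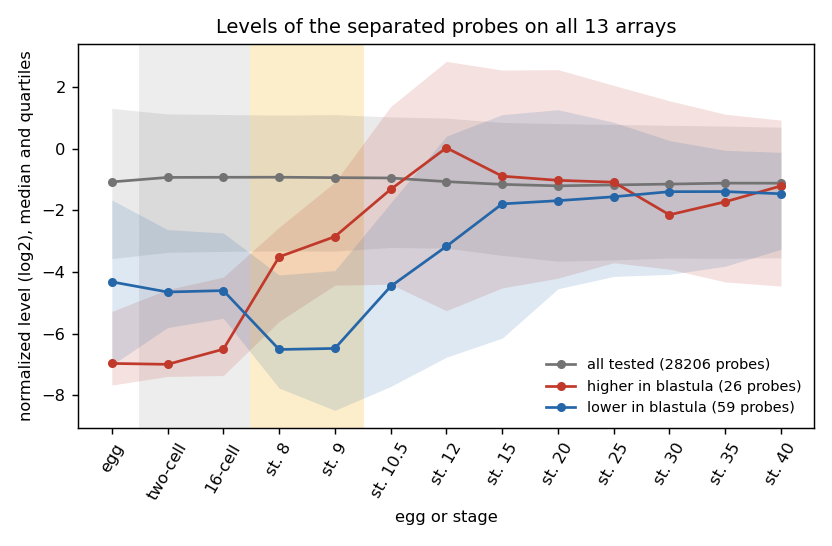
Median level (log2 relative to the 75th percentile, line) and middle 50% (band) on the 13 arrays for the 26 probes higher in the blastula, the 59 lower and all 28206 compared, with levels below background as measured. The values of the 4 compared arrays chose the lists, and the other 9 arrays did not. The higher list goes from -2.85 at stage 9 to -1.32 at stage 10.5, the lower list from -6.48 to -4.47, and the median of all compared probes from -0.94 to -0.95. The lower list was chosen for low blastula values, so part of its rise at stage 10.5 can follow from the choice.

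Many accessions were measured by more than 1 probe, which gave a check of each small difference within the same RNA and arrays. For 9042 accessions with at least 2 probes compared, the probes differed in the same direction for 7821 (86.5%). Over the 9000 accessions with exactly 2, the differences of the probes correlated at r = 0.84 (a description across accessions, whose probes share arrays, RNA and scaling), and the SD between the probes of an accession was 0.143 against 0.356 over probes.

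Agreement was lower for the single steps. The r was 0.67 from the 2-cell to the 16-cell stage with 79.0% of signs alike, 0.70 from there to stage 8 with 80.4%, and 0.61 from stage 8 to stage 9 with 70.9%. It also depended on signal, from r = 0.71 for 1125 accessions below a mean level of -4 to 0.95 for 917 above 2.

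Agreement depended on the size of the difference as well. Where the first probe differed by less than 0.1, the sign of the second was the same for 67.8% of accessions, against 90.2% from 0.1 to 0.25, 95.6% from 0.25 to 0.5 and 97.1% from 0.5 to 1. Above 1 it was 95.6% of 90 accessions. Both probes differed by at least 1.5-fold for 360 accessions higher in the blastula, for 146 lower, and in opposite directions for 3. In 1 of these the probes differed by 0.97 and -1.19, with levels between -8.06 and -4.43. In another they differed by -0.79 and 1.39, the second with levels between -3.24 and 0.19. In the last they differed by 0.76 and -2.75, and the second of these was in the lower list.

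**Figure D4:**
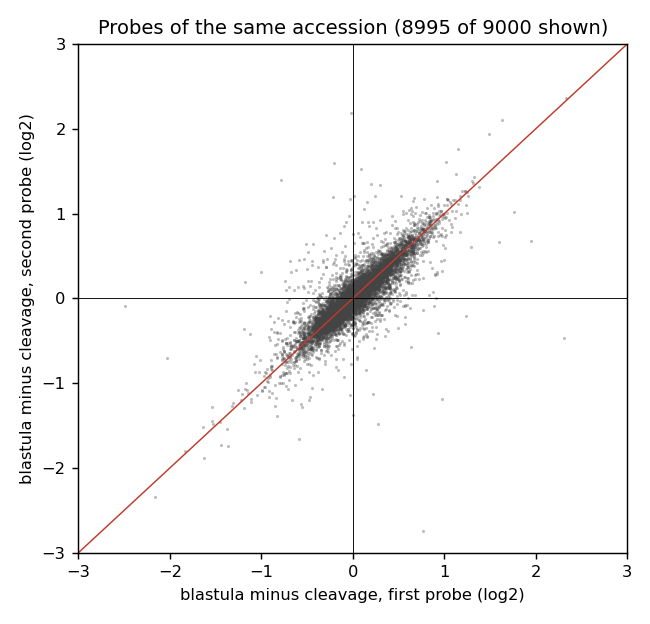
Difference (log2, blastula minus cleavage) of the second probe of an accession against that of the first, 1 point for each accession with exactly 2 probes compared; 8995 of 9000 lie within the axes of 3 in either direction. The points follow the diagonal (r = 0.84), and differences past 1.5-fold in opposite directions are few.

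In the higher list, 14 probes had another compared probe of their accession, and for 13 of them it differed in the same direction. In the lower list this held for 29 of 30. These counts include 8 probes of the higher list and 18 of the lower whose other probe was itself in the list, so their agreement was fixed by the choice. Over all accessions with at least 2 compared probes, 86.5% had probes that differed in the same direction. Both probes of an accession were separated by at least 2-fold for 4 accessions higher in the blastula and for 9 lower, and at 1.5-fold for 42 and 48. Of the 18 probes of the 9 lower accessions, 17 were well above background on all 4 arrays, as were 6 of the 8 probes of the higher ones. Most of these differences thus rest on measurable levels in both groups. For the rest, both BJ047767 probes among them, the fold is only a bound. None of these 26 probes passed the adjusted threshold (limma adjusted p from 0.0645 to 0.134).

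Apart from BJ047767, the 3 higher accessions with both probes separated took different later courses. For 1 of them the brighter probe was at -0.75 and -0.46 in cleavage and at 0.73 and 0.79 in the blastula, after -2.70 in the egg, and then stood at -0.44 at stage 10.5 and -3.41 at stage 15. Its other probe had the same shape, with a difference of 1.32 against 1.37, and both were highest at stage 9.

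Another went from -5.01 and -5.66 in cleavage to -3.04 and -3.43 in the blastula, and was at 0.89 at stage 10.5 and 5.22 at stage 12. The last was at -4.23, -3.12, -1.22 and -1.47 from the 2-cell stage to stage 9 and at 2.54 at stage 12, and its probes differed by 2.33 and 2.36. In both of these the 2 cleavage arrays were below both blastula arrays, stage 9 was slightly below stage 8, and the levels at stage 12 were far above any on the 4 arrays.

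The 9 lower accessions also fell into more than one course. For 3 of them both probes were at least 2-fold lower at stage 10.5 than in the egg, for 2 both were at least 2-fold higher, and for 7 both were at least 2-fold above the egg at some later stage. Of all probes compared, taken singly, 27.2%, 22.4% and 41.7% did so. The shares of accessions with both probes doing so were not counted, so the split is not given as particular to these 9. The brightest was at 2.92 in the egg, 1.88 and 1.59 in cleavage, 0.33 and -0.53 in the blastula and -2.55 at stage 10.5 on one probe, and on the other at 4.38 in the egg, 3.28 at the 2-cell stage, 1.69 and 1.00 in the blastula and -1.67 at stage 10.5. Its level was thus lower at each stage from the egg to stage 10.5 on both probes.

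Another accession was lower in the blastula than in cleavage and at stage 10.5, and was not well above background in the egg. One of its probes was at -6.20 in the egg, -2.86 and -2.80 in cleavage, -4.37 and -4.54 in the blastula and 2.77 at stage 10.5. The other was at -6.04, -3.09, -3.26, -4.96, -5.17 and 1.27 on the same arrays, and both had a limma adjusted p of 0.0645. A further accession went from -0.91 and -1.32 to -2.51 and -2.61 and was at 2.76 at stage 10.5.

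**Figure D5:**
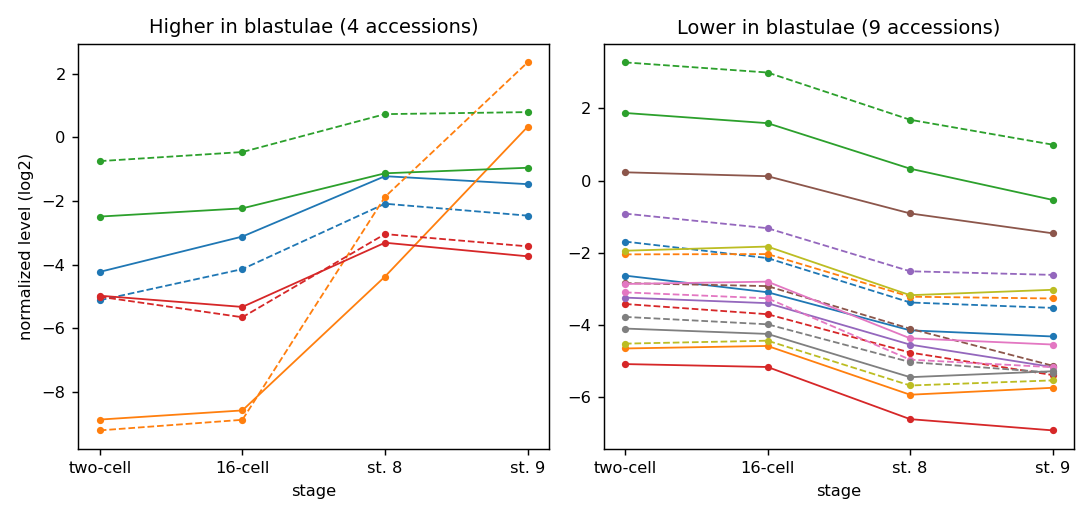
Levels (log2 relative to the 75th percentile) on the 4 compared arrays for the accessions with both probes separated by at least 2-fold, 4 higher and 9 lower in the blastula, each accession in its own colour with solid and dashed lines for its 2 probes. For every accession both lines lie higher, or both lower, at stages 8 and 9 than on the cleavage arrays. The BJ047767 lines, between -9.21 and -8.59 in cleavage, start below background.

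Loss and gain of detection were also counted. Well above background on both cleavage arrays and on neither blastula array were 307 probes (1.09%), and the reverse held for 39 (0.138%). The lowest level well above background was -6.91 and -6.56 on the cleavage arrays and higher on the blastula arrays, at -6.44 and -6.42. How much this adds to the losses was not tested, so the 2 counts are no measure of how many transcripts fell or rose. The bound on the fold was small for most of the 307, with a median of 1.15, at least 2-fold for 17 and no more than 1 for 55, and the highest was 4.68. For the 39 gained probes the median bound was 1.84, it was at least 2-fold for 16, and the highest was 126.

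Of the 307 probes that lost detection, 90 (29.3%) were well above background in the egg, 141 (45.9%) at stage 10.5 and 254 (82.7%) at stage 40. Over all probes compared, these shares were 89.4%, 97.7% and 95.4%. Of the 39 gained, 2 were in the egg, 25 (64.1%) at stage 10.5 and 27 at stage 40. Both sets were chosen for being undetected in 1 group, so shares below those of all probes compared can follow in part from the choice. The egg array also had a higher lowest level well above background, at -5.42. Other compared probes of the same accession differed in the same direction for 67 of 89 after a loss and for 15 of 16 after a gain. Among accessions with 2 or more compared probes, 86.5% had probes that shared a direction. Among those with 2 probes and a mean level below -4, the share was 78.1%. The counts after a loss or gain are of probes, and these shares are of accessions.

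Of the study's glycosylation genes, 26 entries carry an accession and 2 of the genes were on the array by that accession, gcnt2 and mgat5b, which encode enzymes that branch sugar chains. Both gcnt2 probes were between -9.20 and -8.66 on the 4 arrays and not well above background on any of them. The mgat5b probes each passed the background call on 1 of these arrays only, with levels of -6.59, -6.54, -8.04 and -6.57 from the 2-cell stage to stage 9 for one and -6.64, -7.02, -6.94 and -7.06 for the other. None of the 4 probes could be compared between the groups at this signal. The paper reports array levels for other such genes, among them fut1, abo and mgat1, and describes them as higher in early stages. Its early group holds both cleavage and blastula, set against neurula and later stages. That description is therefore not of cleavage against blastula. Those genes could not be paired with probes by an accession here.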

How the data were processed

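RNA of 1 stage per array was labelled with Cy3 from its poly(A) tail and hybridized to single-color Agilent arrays. The authors deposited the scanner output, a linear intensity per spot that was background-corrected by Feature Extraction 10.7.3.1, named in the submitters' processing notes. The deposited series table holds the same intensity: 569439 of 569439 non-control values were identical. Of 45220 spots, 1417 controls were left out. The floor at 1 in the methods changed 0 values. Intensities were divided by the array's 75th percentile and log2-transformed. Probes were compared if well above background on both arrays of a group, and probes of an accession were kept apart. Groups were compared with limma 3.58.1 (lmFit and eBayes, Benjamini-Hochberg, threshold 0.05) in R 4.3.3, and other values were computed in Python 3.11.15 with scipy 1.17.1, pandas 2.3.3 and numpy 2.4.6 and plotted with matplotlib 3.10.9. Whole-array values were compared with exact permutation tests. The number of arrays limits the precision.

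On data simulated for this comparison over 28206 probes, limma recovered 0% of 200 probes changed by 1 on the log2 scale, 93.5% of those changed by 2 and 99% of those changed by 4, and called 0, 6 and 3 unchanged probes. The simulated arrays of a group differed by independent noise only, so a changed probe had no added spread between stages. In the data the brighter BJ047767 probe differed by 9.29 and was not called (limma adjusted p = 0.120). The simulated shares therefore do not hold for probes that also changed within a group.

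The arrays and lists were chosen with earlier results of these data known. Probes were to be named as the 12 largest differences in each direction past the threshold, or else the largest without overlap, whose accession has no other compared probe of the opposite sign. Because accessions could not be paired with gene names, only the first 2 in each direction are named. Probes given without a name were chosen after their values were seen. The lists of pathway genes and cell type markers matched no probe by symbol. The alternatives were median, quantile and spike-in scaling, normexp (on median spot intensity, since no mean intensity is in the files used here), the series table, other filters and folds, slide as a block, a spread shared by all 13 arrays, the mean of an accession's probes, and leaving out each array. A limma fit with an intensity trend and a robust prior, and raising levels to the array's lowest level well above background, were chosen after seeing the data.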

Additional observations from a re-analysis of the deposited data

How the results depend on the processing

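The count of 3 called probes was 15 with median scaling (1 higher, 14 lower), 4 with quantile normalization, 2420 with spike-in scaling (537 higher, 1883 lower), 0 with normexp, 0 with no filter, 0 with probes well above background on all 4 arrays, 58 with slide as a block, 1 with all 13 arrays sharing the spread, 5 for means of accessions, 147 (60 higher, 87 lower) with the intensity trend and robust prior chosen after seeing the data, and 0 to 192 leaving out 1 array. The median difference over all probes was -0.04, but -0.22 with spike-in scaling and -0.20 with normexp. The 85 separated probes became 547 at 1.5-fold, 15 at 4-fold, 53 with levels raised to the background floor (chosen after seeing the data), 24 with normexp, 250 with no filter, 39 with the filter on all 4 arrays, 113 with spike-in scaling (17 higher, 96 lower) and 140 to 604 leaving out 1 array (140 without the 2-cell stage, 604 without the 16-cell stage, 290 without stage 8, 186 without stage 9), where 1 group then holds 1 array, assumed in the fits to vary like the other group. The 1.5-fold, 4-fold and no-16-cell counts split 279 to 268, 4 to 11, and 467 to 137, higher to lower. The share of accessions with probes in the same direction, 86.5%, was 75.9% with no filter and 79.9% to 88.1% leaving out 1 array, lowest without the 2-cell stage. No named probe changed direction under any setting run. Of the glycosylation genes' 4 probes, 0 entered the fit except with no filter, where 0 of 4 passed. The adjusted p of the brighter BJ047767 probe ranged from 2.5e-11 to 0.679. AW158516 and BX853189 each had an adjusted p from 4.5e-13 to 0.679 and lost their calls with normexp, with no filter and without the 16-cell stage, and BX853189 also with all 13 arrays sharing the spread. The causes were not tested. The share restricted to accessions with a called probe gave no value, because no called accession had 2 compared probes. No paired analysis was possible because the labels give no replicate numbers, and no stage has a second array. Dim signals limit folds to bounds, and in simulated data no change of 2-fold was called with 2 arrays a group.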

Other observations

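Some probes stood apart on a single array, at least 2-fold beyond the other 3, which lay within 1.5-fold of each other. At the 2-cell stage 27 probes were low in this way and 3 high. For 18 of the 27 another probe of the accession was compared, and all 18 of these were also lower at the 2-cell stage than on the other 3 arrays, 16 of them by at least 1.5-fold. The 18 include probes whose other probe was itself among the 27, so the agreement of those was fixed by the choice. How many of the 18 this holds for was not counted. In 1 accession both probes showed it, with -2.08 at the 2-cell stage and -0.14, -0.18 and -0.12 from the 16-cell stage to stage 9 on one, and -1.78 against 0.04, -0.04 and -0.03 on the other. Both of its probes were lower still in the egg, at -7.59 and -7.26.

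At the 16-cell stage 10 probes were high and 1 low, at stage 8 23 were high and 17 low, and at stage 9 29 were high and 32 low. Well above background on all 4 arrays were only 4 of the 17 and 7 of the 32 low ones. Among the high ones at these stages, 18 of the 23 and 26 of the 29 were. The second probe was lower on the same array for 5 of 6 low ones at stage 8 and 8 of 13 at stage 9. The second probe was higher on the same array for 3 of 6, 6 of 11 and 9 of 13 of the high ones. The most extreme was at 5.13 at the 16-cell stage and at -4.46, -4.71 and -4.40 on the 2-cell, stage 8 and stage 9 arrays, a gap to the nearest of them of 9.53, where the other probe of its accession had -0.07. At stage 8 a probe was at 1.92 against -5.69 to -5.19 on the other 3 arrays, and the gap of its accession's other probe was 0.13. At stage 9 a probe was at -0.63 against -6.23 to -5.71 on the other 3 arrays, a gap of 5.08, and its accession's other probe had -0.44. This stage 9 probe was still at -0.93 at stage 10.5 and at -2.42 at stage 12, so it stood apart only among the 4 compared arrays. The probes with the next largest gaps at stage 9 went from -0.72 to 3.90 and from 0.19 to -2.54 at stage 10.5.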
